A study of Sus scrofa with 30 samples.

Results

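The 91 pig genes described here are the coding genes on chromosomes 2 and 6 whose symbol is ZNF followed by digits only. They were chosen by name and position, with no measured value in the rule. Chromosome 2 held 14 of them and chromosome 6 held 77, out of 19484 annotated coding genes on chromosomes 1 to 18 and X. They were set beside the 3979 other coding genes of the same 2 chromosomes and beside 147 ZNF genes of other chromosomes.

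ZNF is the symbol stem for proteins with zinc fingers, short folds held by a zinc ion that in most family members bind DNA. Many ZNF proteins carry a KRAB domain, which recruits the co-repressor TRIM28 and the histone H3 lysine 9 methyltransferase SETDB1, and are known for silencing transposable elements in early embryos. In KRAB zinc finger genes the promoter lies at one end and the exon that encodes the finger array is usually the last one. Other members have no KRAB domain and act as ordinary transcription factors, co-factors or RNA-binding proteins. ZNF genes often lie in tandem clusters of related copies. H3K4me3, trimethylation of histone H3 at lysine 4, is known at active and poised promoters, and H3K27me3, trimethylation at lysine 27, is the mark of Polycomb repression.

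Native ChIP-seq for very small samples (ULI-NChIP) had been run on pig oocytes and in vitro fertilised embryos, with 2 libraries in each of 15 groups. H3K4me3 was measured at the GV oocyte (before meiotic maturation), the MII oocyte (mature), the 1-cell, 2-cell, 4-cell and 8-cell embryo, the morula and the blastocyst. It was also measured in 4-cell embryos given small interfering RNA against KDM5B and KDM5C, which encode H3K4 demethylases (siKDM5BC). H3K27me3 was measured in MII oocytes and in 2-cell, 4-cell, 8-cell, morula and blastocyst embryos. No control-siRNA library was labelled, and the untreated 4-cell libraries were the comparison. Whether treated and untreated libraries were prepared and processed together is not stated, so treatment cannot be told apart from a difference of that kind. The libraries do not measure transcripts, so the knockdown itself was not checked here. Nothing states that the 2 libraries of a group came from separate collections, and p-values measure only the spread between libraries, which may be technical.

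Each library was deposited as a list of broad peaks. The value used throughout is the percent of a gene window, the gene body with 1 kb on either side, that lay under a peak. A gene end counted as marked when any base within 1 kb of it lay under a peak. The lists held 37481 to 119878 peaks in the H3K4me3 libraries and 2358 to 80700 in the H3K27me3 libraries, and covered 31.6 to 178.8 Mb and 1.28 to 108.9 Mb. Read depth is unknown, so no counting error can be given. A lower cover cannot be told apart between fewer marked cells and less of the mark per cell. Of the marker lists, 6 to 8 of 8 trophectoderm entries and 3 to 10 of 10 oocyte entries had an H3K4me3-marked end in each H3K4me3 library, and 2 to 5 of 7 cumulus and granulosa entries did. Their part in the results was not tested.

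The ZNF genes had a median body of 20653 bp, against 14139 bp for the other genes of the 2 chromosomes. Windows of 44 members (48.4%) met the window of another coding gene, as did 48.3% of the other genes. Another member lay within 100 kb of 53 members, called clustered below, and the remaining 38 stood farther apart. In 8 cases a member overlapped another member (ZNF23 with ZNF19, ZNF146 with ZNF565, ZNF576 with ZNF428, ZNF583 with ZNF582), and values within such a pair share peaks. Whether reads that map to several near-identical copies were kept is not given in the sources used here, so values of close paralogs are uncertain.

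Up to the 4-cell stage the ZNF genes carried about as much H3K4me3 as their chromosomal neighbours, and from the morula they carried far more. From the GV oocyte to the 4-cell embryo the mean cover of a ZNF window ran from 6.60% in an MII library to 18.96% in a 1-cell library, and that of other genes from 8.21% in an MII library to 20.9% in a 2-cell library. At the 8-cell stage the ZNF genes stood at 15.5% and 17.5%, against 11.9% and 13.8%. In the 2 morula libraries the ZNF means were 29.9% and 31.2%, and those of other genes 17.1% and 17.7%. In blastocysts they were 32.5% and 32.5%, against 20.1% and 20.5%. All 4 morula and blastocyst values of the ZNF genes lay above every value of the other genes at those stages.

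Peak strength moved with stage, alike in both sets of genes. The authors give each peak a −log10 q, the strength of its support. The strongest peak of a covered ZNF window had a median −log10 q of 1.44 to 2.22 in the MII, 1-cell and 2-cell libraries, of 2.63 to 6.24 in the GV, 4-cell, 8-cell and siKDM5BC libraries, and of 17.5 to 21.7 in the morula and blastocyst libraries. Other covered genes had 1.47 to 2.17, 2.70 to 6.08 and 16.1 to 19.03. Peaks of −log10 q of 3 or more covered no ZNF gene in both MII libraries and 89 of 91 (97.8%) in both blastocyst libraries. For the other genes of the 2 chromosomes these shares were 0.05% and 77.1%. Differences between stages are given with this in view, and the part of peak strength in them was not tested. Within a library both sets of genes have the same peak calling, and with these stricter peaks the ZNF mean in blastocysts was 27.6% ± 0.39 (SD, n = 2), against 18.6% ± 0.37 (SD, n = 2).

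H3K27me3 on the ZNF genes was nearly absent in 2-cell embryos, and from the 8-cell stage on it was higher there than on the other genes. Mean cover of ZNF windows was 2.47% and 2.03% in MII oocytes, below the 4.61% and 3.75% of other genes. It was 0.0640% and 0.0380% in 2-cell and 0.505% and 1.29% in 4-cell embryos. The 8-cell libraries disagreed, with 1.42% in replicate 1 and 5.51% in replicate 2. Other genes stood at 0.207% and 1.38% in the same 8-cell libraries, so the ZNF genes were the higher set in each. In morulae the ZNF genes reached 6.87% and 7.76%, while other genes were at 0.727% and 0.896%. In blastocysts the ZNF values were 16.1% and 17.9%, against 4.19% and 5.14%. The ratio of the group means was 9.02 in morulae and 3.65 in blastocysts.

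**Figure D1:**
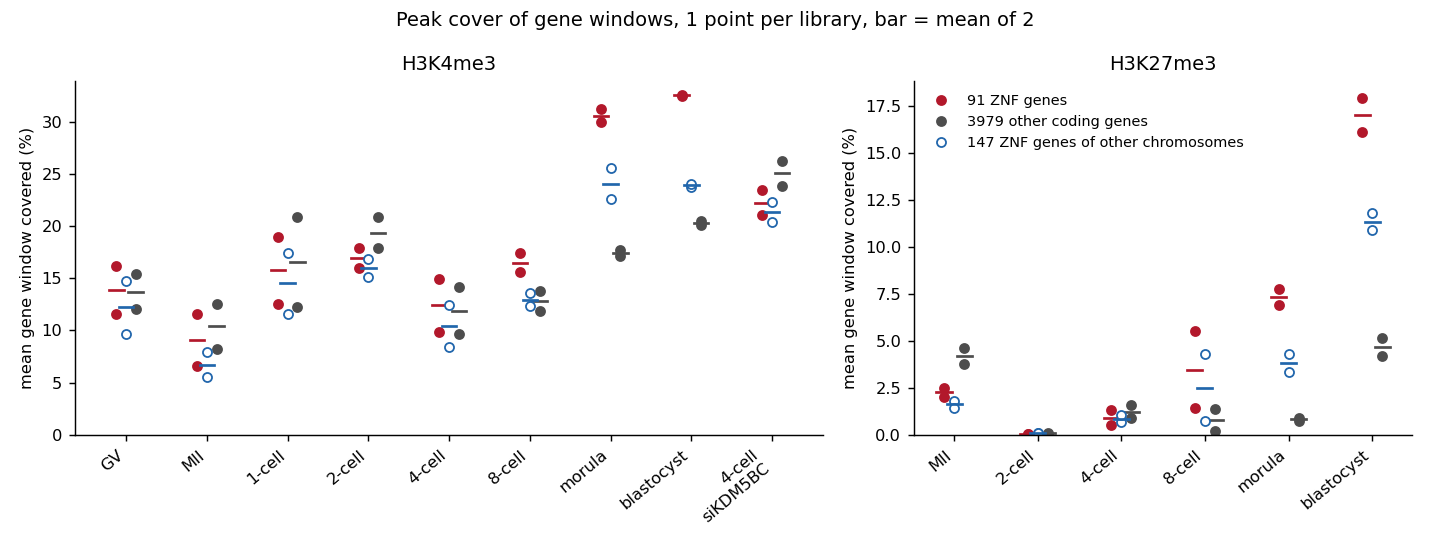
Mean percent of the gene window under peaks (y axis) by stage or treatment (x axis) for H3K4me3 and H3K27me3; each point is 1 library, each bar the mean of 2, for 91 ZNF genes, 3979 other coding genes of chromosomes 2 and 6, and 147 ZNF genes of other chromosomes. The ZNF points separate from the other genes in morulae and blastocysts for both marks.

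The ZNF genes of other chromosomes took a similar course at lower levels. Their H3K27me3 cover was 3.80% ± 0.69 (SD, n = 2) in morulae and 11.3% ± 0.65 (SD, n = 2) in blastocysts, and their H3K4me3 cover in blastocysts was 23.9% ± 0.24 (SD, n = 2). Within chromosomes 2 and 6, clustered ZNF genes had 19.4% ± 1.23 (SD, n = 2) H3K27me3 cover in blastocysts and the 38 others 13.7% ± 1.32 (SD, n = 2). In MII oocytes the order of the means was the opposite, with 0.79% ± 0.30 and 4.28% ± 0.33 (SD, n = 2 each). These MII means rest on few genes, since H3K27me3 bases shared by both MII libraries lay in 7 of the 91 windows. ZNF469, at 76.3% and 74.0%, ZNF423 and ZNF536 were among the 38, and ZNF579, at 35.7% and 21.6%, was clustered. The 205 named genes within 100 kb of a ZNF gene that are not zinc finger genes had 3.09% ± 0.41 (SD, n = 2) in blastocysts, against 4.66% ± 0.68 (SD, n = 2) of all other genes of the 2 chromosomes. With unnamed and other zinc finger genes kept, 335 other genes lay within 100 kb. From MII to blastocyst these 335 rose by a mean of 5.43 points, the 205 by 1.89 and all other genes by 0.48. Called higher were 30.7%, 23.4% and 20.6%. In blastocysts H3K27me3 cover was 7.57% ± 0.22 for the 14 members on chromosome 2 and 18.7% ± 1.46 for the 77 on chromosome 6 (SD, n = 2 each).

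Counted gene by gene, H3K27me3 met the windows of 7 ZNF genes in both MII libraries, of 2 in both 2-cell libraries, 16 at the 4-cell, 28 at the 8-cell, 49 at the morula and 63 at the blastocyst stage, each of 91. The corresponding shares of the other genes were 21.5%, 1.48%, 18.3%, 7.72%, 11.6% and 34.4%. H3K4me3 marked an end of 54 ZNF genes in both MII libraries, 79 in both 2-cell and 82 in both blastocyst libraries. H3K4me3 bases shared by both libraries lay in 69 ZNF windows in MII oocytes and 91 in blastocysts. Of the 3979 other genes, 2608 and 3208 had such bases. In all 18 H3K4me3 libraries the window of ZNF524 was the most covered member on average, at 81.0%, followed by ZNF575 at 60.1% and ZNF296 at 53.0%. The least covered was ZNF521, a long gene for a regulator of blood and neural progenitors, at 2.61%, followed by ZNF300 at 5.14% and ZNF507 at 5.34%. For H3K27me3 the 12-library means were highest in ZNF132, ZNF469 and ZNF135, at 30.2%, 26.4% and 22.8%. These means pool unlike stages, since ZNF132 and ZNF135 were at 0% to 4.30% in MII oocytes and ZNF469 at 76.3% and 74.0%. An H3K4me3-marked end was found in all 18 libraries in 42 members, of which ZNF408, ZNF692, ZNF496 and ZNF653 come first in map order. The counts of marked ends are given here without the share of other genes, so they are not read as particular to ZNF genes. ZNF319 had cover in all 18 libraries and a marked end in 0 of them. No H3K27me3 peak met the windows of ZNF414, ZNF524, ZNF575, ZNF576, ZNF584, ZNF593 or ZNF671 in any of the 12 libraries.

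**Figure D2:**
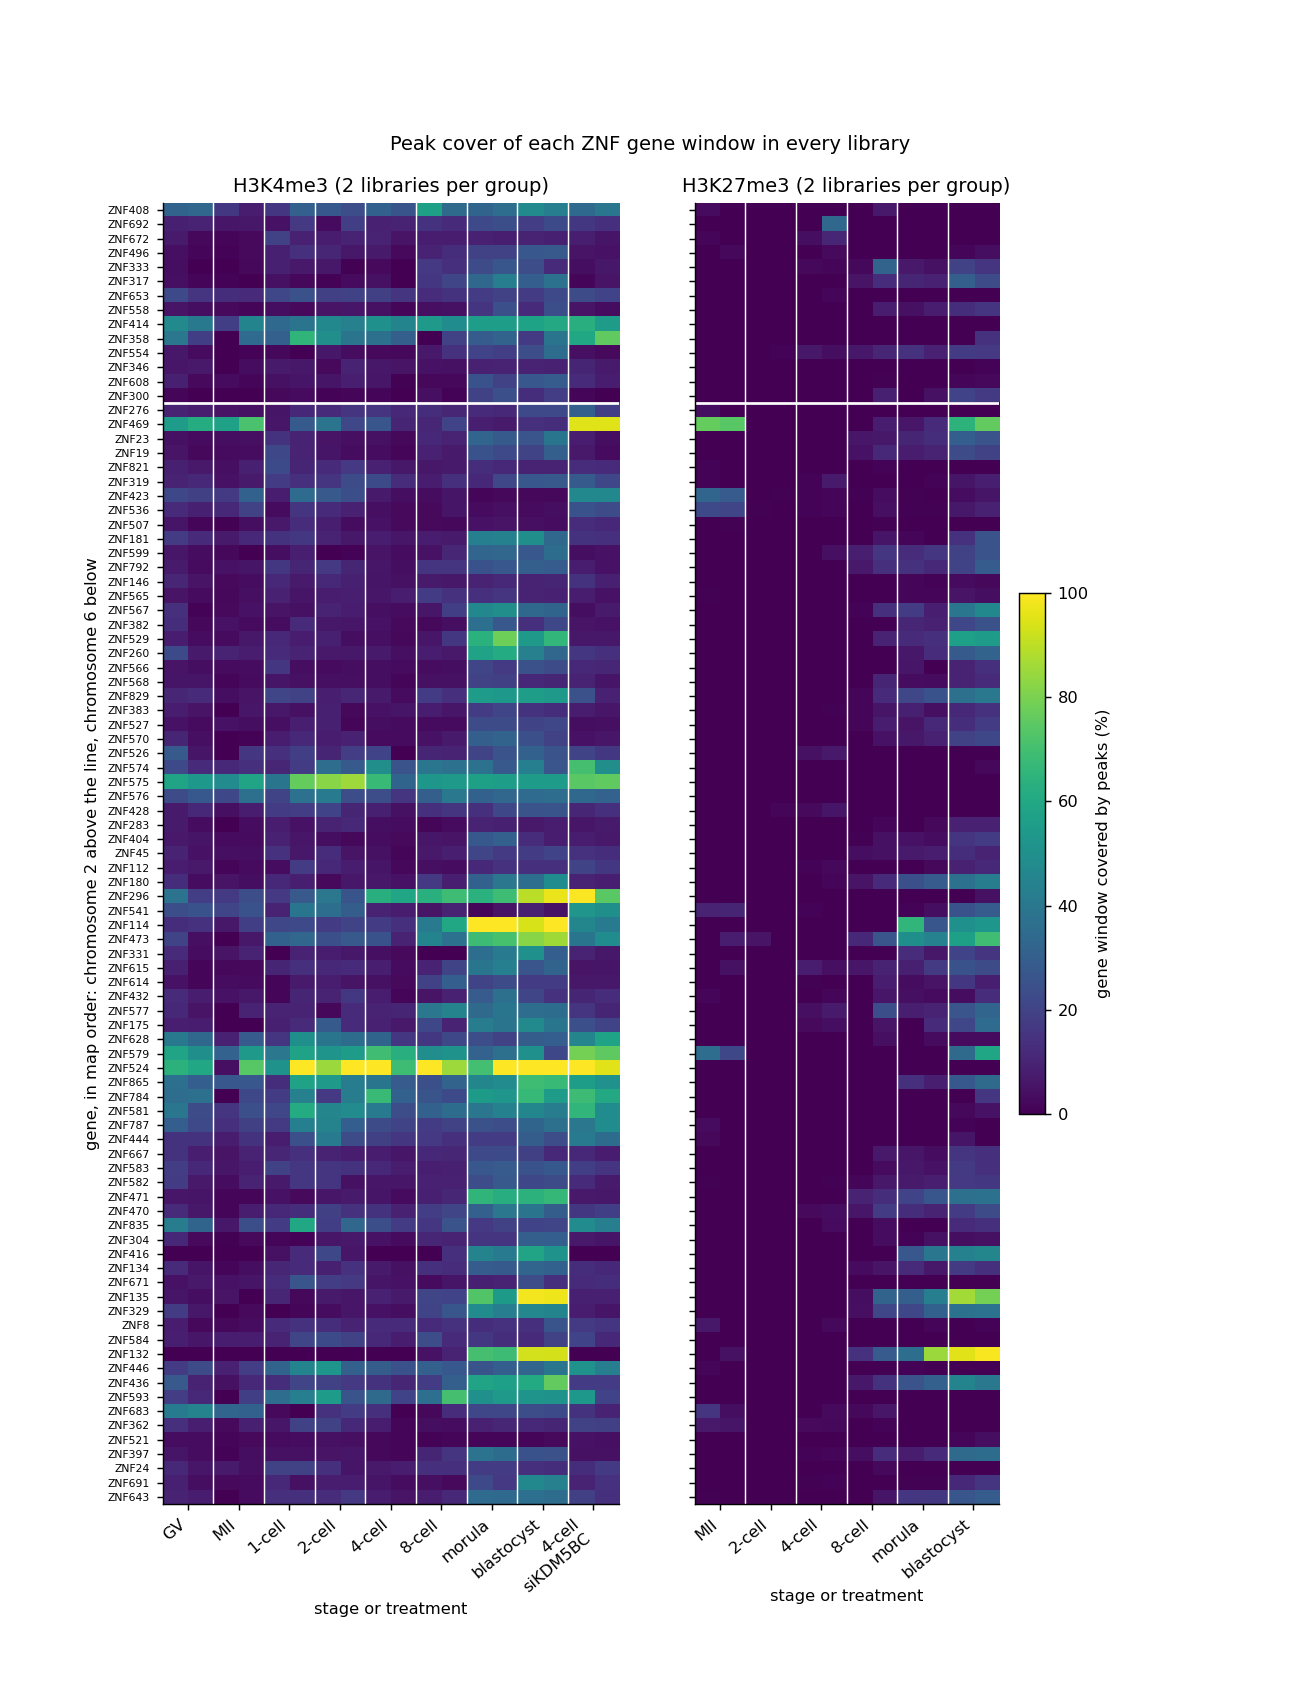
Percent of the gene window under peaks (colour, 0 to 100) for each of the 91 ZNF genes (rows, in map order, with chromosome 2 above the white line) in each library (columns, 2 per stage or treatment). Most rows brighten from the morula on in both marks, while ZNF469, ZNF423 and ZNF536 stand above their 4-cell level in MII oocytes and after siKDM5BC. Rows such as ZNF524 and ZNF575 are bright for H3K4me3 in most libraries and dark for H3K27me3. ZNF524 had 231 bp covered by H3K4me3 in MII replicate 1 and 4012 bp in MII replicate 2.

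In blastocysts H3K27me3 on the ZNF genes was densest toward one end of the gene. The annotation used here carries no strand, so each gene was turned to put first the end with more H3K4me3 in GV oocytes. This was possible for 72 members and 2582 other genes with a body of at least 5 kb. In blastocysts H3K27me3 covered 35.7% ± 1.08 (SD, n = 2) of the last 20% of the ZNF bodies, against 8.77% ± 0.76 (SD, n = 2) of the first 20% and 12.9% ± 1.05 (SD, n = 2) of the middle. The other genes were nearly flat, at 5.95% in the first, 4.12% in the middle and 4.27% in the last stretch. In morulae the last 20% of ZNF bodies had 18.7% ± 1.80 and the first 3.08% ± 0.19 (SD, n = 2 each). In MII oocytes no such slope was present, with 2.26% ± 0.16 in the last and 2.19% ± 0.47 in the first stretch (SD, n = 2 each).

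H3K4me3 was high at the same far end in morulae and blastocysts. It covered 5.59% ± 1.35 of the last 20% of ZNF bodies in MII oocytes, 7.58% ± 2.26 in 4-cell and 14.1% ± 1.15 in 8-cell embryos (SD, n = 2 each). In morulae it covered 42.7% ± 0.04 and in blastocysts 38.4% ± 0.01 (SD, n = 2 each), about as much as the first 20%, which had 41.6% and 43.7%. Other genes had 9.15% and 13.6% in their last 20% at those stages. The first end had been chosen by H3K4me3 in GV libraries, so a high H3K4me3 value there, and a low early one at the far end, partly describe the choice. The H3K27me3 values were not part of that choice. Among clustered ZNF genes the last 20% held 45.6% H3K27me3 and 45.6% H3K4me3 in blastocysts, and among the others 21.7% and 28.3%.

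**Figure D3:**
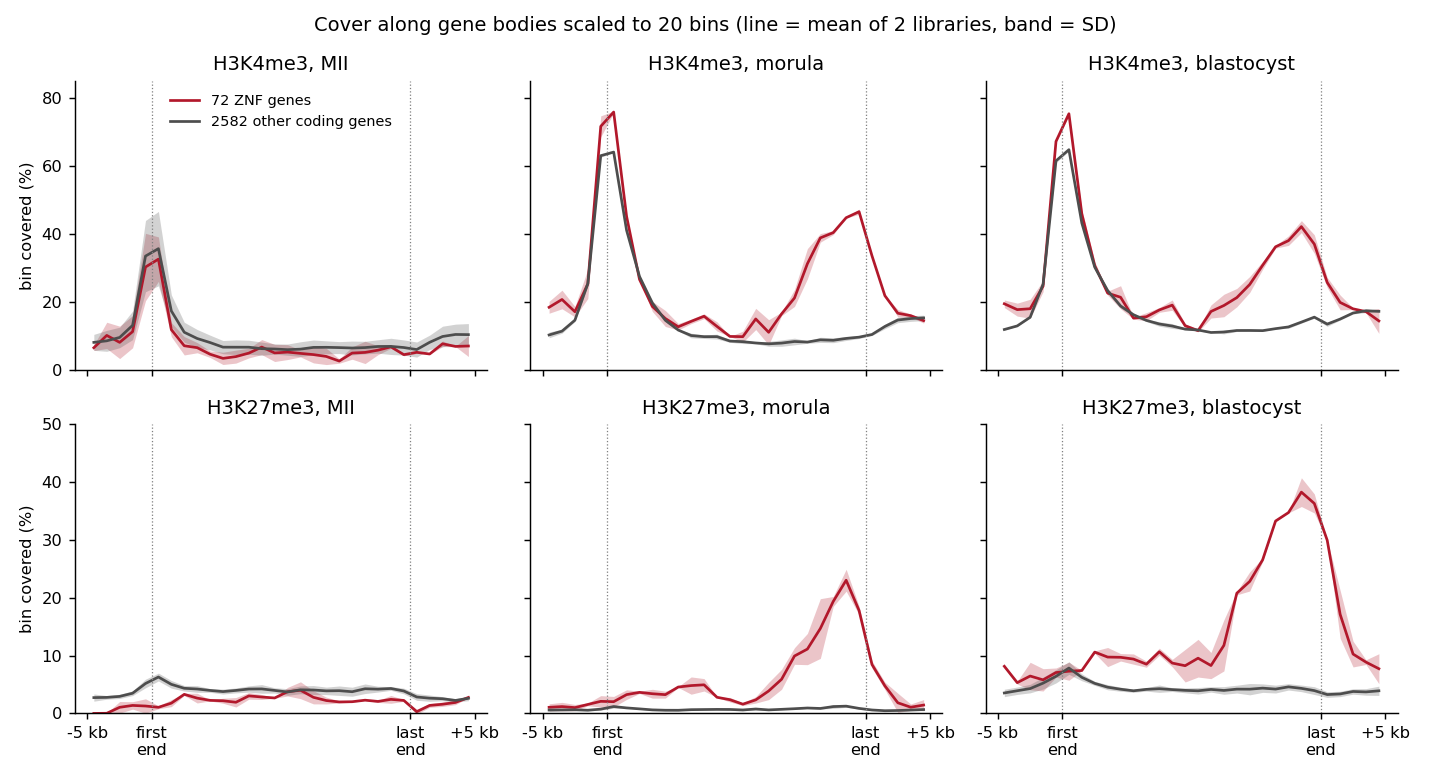
Percent covered (y axis) along gene bodies scaled to 20 bins with 5 kb on either side (x axis), turned so that the end with more H3K4me3 in GV oocytes comes first; lines are the mean of 2 libraries and bands the SD, for 72 ZNF genes and 2582 other coding genes of chromosomes 2 and 6. A second peak near the last end is present in the ZNF genes in morulae and blastocysts, in both marks, and absent in MII oocytes.

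Single genes showed the same layout. H3K27me3 covered the last 20% in both blastocyst libraries in 43 of 72 ZNF genes (59.7%) and the first 20% in 15 (20.8%). For the other genes these shares were 13.4% and 19.1%. The last stretch was covered more than the first in both libraries in 38 of the 72 ZNF genes, and less in 7. Among the 2582 other genes it was covered more in 247 and less in 386. In ZNF577, ZNF615, ZNF829 and ZNF114 the last 20% was at 100% and the first at 0% in each blastocyst library. ZNF180 and ZNF329 also had 100% in the last 20% in both, with 10.3% and 20.4%, and 7.73% and 0%, in the first. ZNF473 was turned the other way, with 100% in the first and 0% in the last 20% in both. ZNF473 encodes a protein of the U7 machinery that processes histone transcripts. Whether the end chosen by GV H3K4me3 is the promoter end was not tested.

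The 2 marks met on the same base pairs. In morulae 43 of 91 ZNF genes (47.3%) had bases under both marks in all 4 libraries, against 7.21% of the other genes. In blastocysts these were 58 (63.7%) and 20.96%. Of the H3K27me3 bases shared by both libraries in ZNF windows, 92.4% lay under H3K4me3 in morulae and 60.03% in blastocysts, against 71.6% and 31.0% in the other genes. Summed over the window, the bases under both marks in blastocysts came to 12883 bp in ZNF135, of a 17528 bp window. They came to 11545 bp in ZNF397, of 69961 bp, and to 9355 bp in ZNF643, of 43449 bp. Peak cover from bulk libraries cannot tell whether both marks sit on the same chromatin, alleles or cells.

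The H3K27me3 peaks in ZNF genes were weak by the authors' own scores. In the 2 blastocyst libraries the strongest peak of a covered ZNF window had a median −log10 q of 2.62 and 2.36, somewhat above the 1.83 and 1.77 of other covered genes. The widest peak had a median width of 4029 and 4303 bp, against 1228.5 and 1283 bp. With only peaks of −log10 q of 3 or more, ZNF cover in blastocysts fell to 4.16% ± 1.43 (SD, n = 2), against 0.96% ± 0.05 (SD, n = 2) in other genes. Then 9 ZNF genes (9.89%) were covered in both libraries, against 3.57% of the other genes. These 9 were ZNF473, ZNF329, ZNF471, ZNF23, ZNF19, ZNF554, ZNF134, ZNF423 and ZNF536. The H3K4me3 peaks were strong, with medians of 17.5 and 18.2 in ZNF genes and 17.7 and 19.03 in other genes.

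Each gene was then tested with limma on the percent of its window covered, with Benjamini-Hochberg adjustment over all coding genes tested. A gene was called where the adjusted p was under 0.05 and the libraries of the 2 groups did not overlap. Those against 4-cell embryos use the same 4-cell libraries, and others share MII or blastocyst libraries, so their calls are not independent of each other.

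Between MII oocytes and blastocysts H3K4me3 rose on 69 of 91 ZNF genes and fell on 3. All 91 were tested. Over all genes tested 44.4% were called higher and 6.1% lower, and of the 3979 other genes of the 2 chromosomes, tested or not, 41.2% were called higher. The median difference was 20.4 percentage points in the ZNF genes and 5.17 in the other genes. ZNF135 (chr6:62754034-62769561, susScr11) and ZNF132 (chr6:63018644-63021312), both clustered, stood at the top; the body of ZNF132 overlaps another coding gene. ZNF135 was covered to 5.43% and 0% in MII and to 98.2% and 97.5% in blastocyst libraries, a rise of 95.2 points (SE 5.84, limma adjusted p = 1.351e-07). ZNF132 was at 0% in both MII libraries and at 93.0% and 93.7% in blastocysts. Its groups did not overlap, and of the 18 H3K4me3 libraries only the 6 of the 8-cell, morula and blastocyst stages covered it. Its call was lost with peaks of −log10 q of 3 or more (46.5 points, limma adjusted p = 0.09428), which covered it in 1 of 2 blastocyst libraries.

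ZNF114 rose from 6.39% and 18.7% to 94.1% and 100%, and ZNF473 from 0% and 6.48% to 82.2% and 85.9%. All 4 genes kept their groups apart by more than 60 points. With windows that meet no other coding window only, 33 of the 47 such ZNF genes were called higher. With each library scaled by its mean the split was 46 higher and 8 lower. The shares of all genes called in these refits are not given here, so the counts do not compare ZNF genes with other genes.

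The 3 genes that fell stand far from other members and have bodies of 46893 to 482257 bp. ZNF469 (chr6:1161514-1208406), a gene linked to brittle cornea syndrome, fell from 57.0% and 71.5% in MII to 13.3% and 13.3% in blastocysts (−50.96 points, SE 9.10, limma adjusted p = 0.0005755). ZNF423, a co-factor of EBF and SMAD proteins, fell from 17.0% and 31.0% to 2.01% and 2.15% (adjusted p = 0.01734). ZNF536, a regulator of neuronal differentiation, fell from 11.5% and 19.3% to 2.84% and 3.63% (adjusted p = 0.01279). In each the MII libraries were the high ones, without overlap. The strongest MII peaks over the 3 genes had −log10 q of 1.86 to 2.79. With peaks of 3 or more their differences turned to 13.3, 1.72 and 1.97 points higher in blastocysts. The calls on ZNF423 and ZNF536 were lost without MII replicate 2 and without either blastocyst library.

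From the 4-cell embryo to the blastocyst H3K4me3 rose on 53 of 91 ZNF genes and fell on ZNF579. Over all genes tested 33.6% were called higher and 0.48% lower, and of the 3979 other genes, tested or not, 29.5% were called higher. The median difference was 15.9 points in the ZNF genes and 3.43 in the other genes. ZNF135 went from 9.17% and 7.05% to 98.2% and 97.5% (89.8 points, SE 5.84, limma adjusted p = 2.475e-07). ZNF132 had the largest difference, 93.4 points, while ZNF114 and ZNF473 had 81.3 and 66.7 points, and no library of 1 stage overlapped those of the other; with stricter peaks ZNF132 lost this call as well (limma adjusted p = 0.1314). ZNF579 fell from 69.3% and 62.7% to 50.4% and 21.5% (limma adjusted p = 0.04807), and the call ended without blastocyst replicate 2 and without either 4-cell library. Counting only the 1 kb around gene ends, 31 ZNF genes rose, against 53 over the whole window. The share of all genes that rose at gene ends is not given here.

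Between the 2-cell and the 4-cell embryo, the time of the major genome activation in the pig, few ZNF genes changed by this test. No member was called higher, against 0.246% of all genes, and 2 were called lower, against 9.18%. The median difference was −3.54 points in the ZNF genes and −3.34 in the other genes of chromosomes 2 and 6. Called or not, 78 of the 91 members had a lower mean in 4-cell than in 2-cell embryos, and 12 a higher one. By unadjusted limma p under 0.05, 1 member was higher and 14 were lower, with the share of all genes not given here. ZNF283 went from 9.50% and 11.2% to 3.70% and 3.39% (limma adjusted p = 0.0261) and ZNF521 from 4.56% and 4.15% to 2.34% and 1.20% (adjusted p = 0.02644). In both the 2-cell libraries were the high ones. ZNF296, whose product is known as a partner of KLF4 in pluripotent cells, had the largest difference upward, 39.8% and 26.0% in 2-cell and 63.1% and 59.2% in 4-cell libraries (28.3 points, SE 10.3, limma adjusted p = 0.102). It did not pass in this fit. It did with peaks of −log10 q of 3 or more (56.0 points, adjusted p = 0.02096) and with each library scaled by its mean (41.8 points, adjusted p = 0.005764). ZNF784 followed with 20.2 points (limma adjusted p = 0.3554), its libraries overlapping. The calls on ZNF283 and ZNF521 were lost without 2-cell replicate 1, 4-cell replicate 1 or 4-cell replicate 2, and with stricter peaks the differences of these 2 genes turned positive. With those stricter peaks 10 ZNF genes were called higher and none lower, beside 10.5% of all genes called higher. With scaling 3 were higher and none lower.

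H3K27me3 rose on 55 of 91 ZNF genes between MII oocytes and blastocysts and fell on 4. The test needed cover in 2 of the 12 H3K27me3 libraries, which 75 ZNF genes had. Of all genes tested 39.8% were called higher and 15.5% lower. Counted over whole sets, tested or not, 60.4% of the 91 ZNF genes, 20.6% of the 3979 other genes of the 2 chromosomes and 23.4% of all coding genes were called higher. With no such filter 48 of 91 were called higher, against 13.7% of all genes. By position, 37 of the 53 clustered genes and 18 of the 38 others were called higher, and all 4 called lower were among the others. Of the ZNF genes of other chromosomes 48.3% were called higher.

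ZNF132 was the most covered, at 95.6% and 98.9% in blastocysts, against 0% and 4.30% in MII oocytes (95.1 points, SE 13.4, limma adjusted p = 0.0005632). It was also at 36.3% and 84.8% in morulae, so it was already high in one morula library. Its strongest blastocyst peaks had −log10 q of 1.94 and 1.89, and its call was lost with peaks of fold 3.5 or more (47.8 points, limma adjusted p = 0.237). ZNF135 rose from 0% and 0% to 86.1% and 79.1% (adjusted p = 0.0001049), with 30.4% and 42.9% in morulae. ZNF473 rose from 0% and 8.05% to 57.0% and 69.3%, and ZNF529 (chr6:45812305-45833595) from 0% and 0% to 56.6% and 55.5% (limma adjusted p = 6.291e-06). In none of these did the 2 groups overlap. Of the 55 genes, 50 had also been called higher for H3K4me3 between the same stages, and none had been called lower. H3K4me3 had been called higher on 69 of all 91 ZNF genes. The share of other genes with both calls is not given here, so the joint count is not read as particular to ZNF genes.

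The 4 that fell were ZNF423, from 32.5% and 28.7% to 3.17% and 5.602% (limma adjusted p = 1.915e-05), ZNF536, from 22.2% and 20.7% to 6.47% and 9.21%, ZNF683 and ZNF362. ZNF683 encodes a regulator of tissue-resident lymphocytes. It went from 14.8% and 3.90% to 0% and 0% and lost its call without MII replicate 1 and without either blastocyst library. Within 1 kb of the gene ends ZNF536 moved the other way, from 0% in both MII to 50% in both blastocyst libraries (limma adjusted p = 2.791e-07), and ZNF423 differed by 2.93 points (adjusted p = 0.7709). With peaks of −log10 q of 3 or more, 7 ZNF genes were called higher in place of 55, and the share of all genes is not given here. With each library scaled by its mean cover, the split was 8 higher and 3 lower, with 13.4% of all genes higher.

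**Figure D4:**
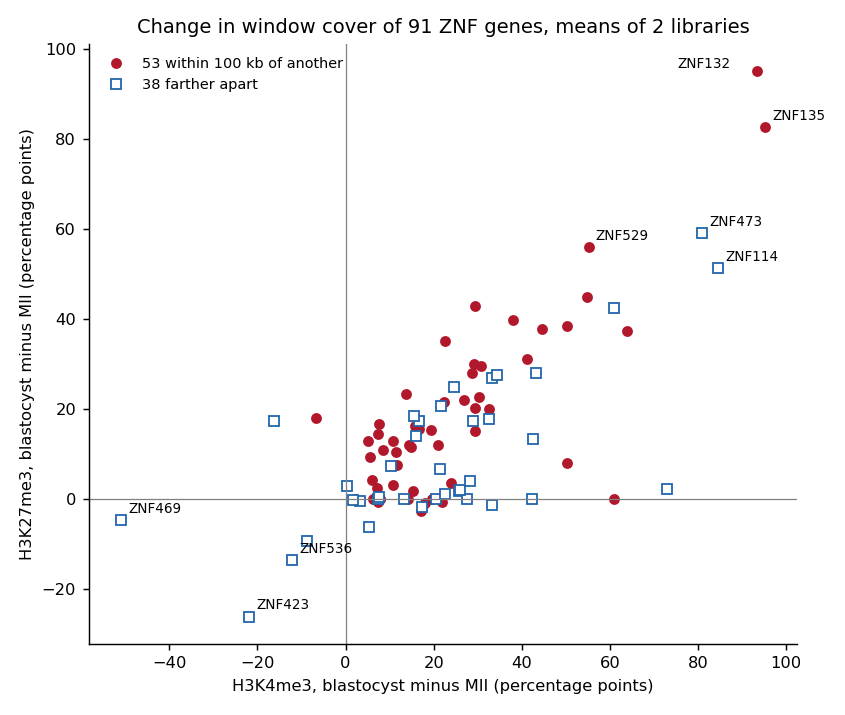
Change in percent of the gene window covered between MII oocytes and blastocysts for H3K4me3 (x axis) and H3K27me3 (y axis), in percentage points; each point is 1 of the 91 ZNF genes (means of 2 libraries), filled for the 53 within 100 kb of another member and open for the 38 farther apart. Most points lie in the upper right, with ZNF132 and ZNF135 farthest out, and ZNF423, ZNF536, ZNF469 and ZNF683 in the lower left.

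The loss of oocyte H3K27me3 by the 2-cell stage touched few ZNF genes, and few had carried the mark in MII oocytes. It was called on 6 of the 75 ZNF genes tested, against 21.5% of all genes tested, and no ZNF gene rose (0% of all genes). Over whole sets, tested or not, these were 6.59% of the 91 ZNF genes and 12.7% of all coding genes. ZNF469 went from 76.3% and 74.0% in MII to 0% and 0% in 2-cell libraries (−75.16 points, SE 4.76, limma adjusted p = 1.202e-05), ZNF423 from 32.5% and 28.7% to 0.201% and 0.425%, and ZNF579 from 35.7% and 21.6% to 0% and 0%. ZNF536 fell by 21.02 points. The MII libraries were the high ones throughout. In ZNF469 the mark was back at 64.7% and 76.0% in blastocysts, after 5.92% and 11.98% in morulae. Without MII replicate 2 the number called was 10, and ZNF579 lost its call without MII replicate 1 or either 2-cell library. By unadjusted limma p under 0.05 no ZNF gene was higher and 7 were lower, with the share of all genes not given here.

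After siKDM5BC, H3K4me3 was higher on 15 of 91 ZNF genes and lower on none at the 4-cell stage. Over all genes tested 28.1% were called higher and 0.106% lower, and of the 3979 other genes, tested or not, 27.1% were called higher, so the ZNF share, 16.5%, lay below the background. The median difference was 6.26 points in ZNF genes and 6.28 in other genes. By unadjusted limma p under 0.05, 30 ZNF genes were higher and 0 lower. The share of all genes at that threshold is not given here, so these counts do not compare ZNF genes with other genes. ZNF469 was covered to 95.1% and 95.0% after siKDM5BC and to 26.6% and 10.5% in untreated embryos (76.5 points, SE 9.10, limma adjusted p = 0.0002355). ZNF541 (chr6:53280042-53311434), known from meiotic male germ cells, had 52.3% and 49.8% against 9.89% and 8.09% (42.1 points, adjusted p = 0.001128). ZNF423 had 46.8% and 46.8% against 7.25% and 3.70% (41.3 points, adjusted p = 0.001011). In each of these the treated libraries lay far above the untreated ones.

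ZNF114 followed with 28.1 points (limma adjusted p = 0.0156), and the rest were ZNF473, ZNF444, ZNF536, ZNF362, ZNF112, ZNF276, ZNF45, ZNF643, ZNF507, ZNF568 and ZNF521, with differences of 26.4 down to 2.73 points. All 15 are on chromosome 6, and 4 of the 53 clustered genes and 11 of the 38 others were among them. Whether those shares differ was not tested. ZNF469, ZNF423, ZNF536 and ZNF362 were also among the genes that lost H3K27me3 or H3K4me3 between MII oocytes and later stages. ZNF132 and ZNF529, which gained both marks by the blastocyst, were at 0% and 0%, and at 6.42% and 6.56%, after siKDM5BC. ZNF473, which also gained both marks by the blastocyst, was among the 15 called higher. Whether the change after siKDM5BC goes with either course was not tested. ZNF672 and ZNF565 had the largest differences downward, −0.58 and −0.55 points, with adjusted p of 0.9168 and 0.8737, and their libraries overlapped. The treated libraries covered 178.8 and 164.3 Mb of the genome in all, against 56.4 and 31.6 Mb in the untreated 4-cell libraries. Of their 92417 and 83797 peaks, 91171 and 82683 lay on chromosomes 1 to 18 and X. In the untreated libraries these were 58229 of 58260 and 37481 of 37496. Treatment cannot be told apart from a difference in preparation or processing between these libraries. With each library scaled by its mean, 2 ZNF genes were higher and 1 lower, with 4.67% of all genes higher, and the calls on ZNF469 and ZNF541 were lost (adjusted p = 0.05215 and 0.0578, limma). Leaving out untreated replicate 2 left 4 calls, and leaving out siKDM5BC replicate 1 left 5; ZNF114 was among those lost in both.

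**Figure D5:**
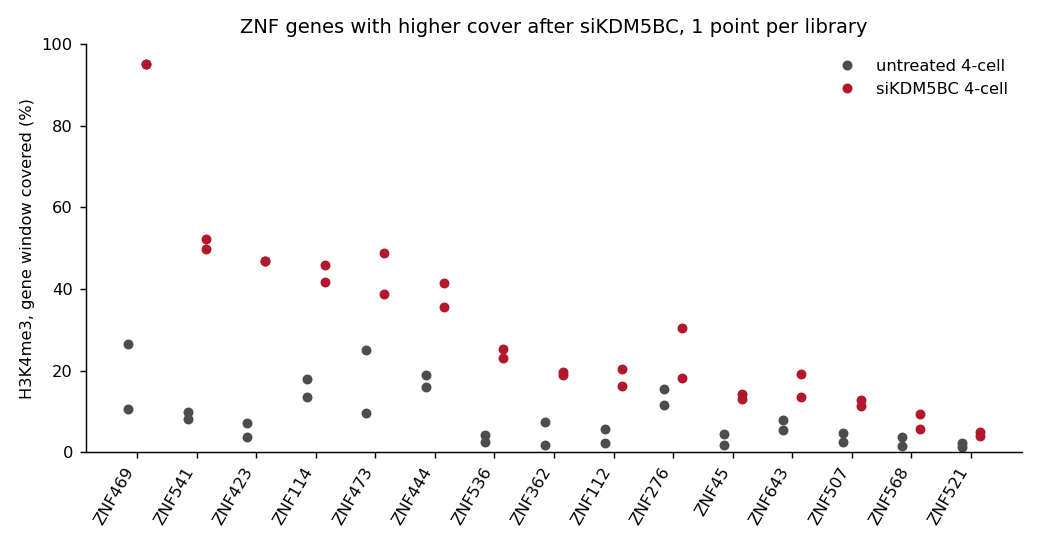
H3K4me3 cover of the gene window (y axis, percent) for the 15 ZNF genes called higher after siKDM5BC (x axis, by size of the difference); each point is 1 library, grey for untreated and red for siKDM5BC 4-cell embryos. ZNF469 reaches about 95% in both treated libraries, and the red points lie above the grey ones in every gene.

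A list of genes tied to the KRAB co-repressor pathway was looked at in the same way. It also holds the zinc finger genes ZFP57 and ZFP42 and wider chromatin factors such as DAXX and DNMT1. Of 33 listed genes 28 were matched in the annotation. Between MII oocytes and blastocysts 24 of 28 rose in H3K4me3 and none fell, beside 40.8% of all coding genes called higher. The largest differences were in DAXX, a chaperone of histone H3.3, with 89.3 points (limma adjusted p = 1.08767e-05), and in ZFP42, a pluripotency-linked zinc finger gene, with 87.5 points. TRIM28 itself rose by 62.8 points, from 7.49% and 3.89% to 93.7% and 43.3% (SE 14.0, adjusted p = 0.00268961), and SETDB1 by 10.6 points. Between 4-cell embryo and blastocyst 15 rose and none fell, beside 30.9% of all coding genes higher, among them the imprinting factor ZFP57, from 0% in both libraries to 58.2% and 77.4%. Between the 2-cell and the 4-cell stage none was called. After siKDM5BC 3 were higher, ZFP42, DNMT3A and CBX1, a smaller share than the 25.9% of all coding genes. H3K27me3 rose by the blastocyst on 7 of the 28, a share near the 23.4% of all coding genes, among them MORC2, a silencing ATPase, by 5.93 points, and fell on DNMT3A, which also accounted for the 1 fall between MII oocyte and 2-cell embryo.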

How the data were processed

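Broad-peak lists of 30 libraries were used, with 2 libraries in each of 15 groups. Bowtie2 2.4.1, MACS2 and the susScr11 build are listed, without their settings, in the submitters' processing notes. Whether an input was used, which threshold was set and how reads were filtered is not given in the sources used here. Of each deposited peak 2 values were read, the authors' fold enrichment ratio and their −log10 q, and they served only to filter or describe peaks. One peak list was deposited per library, and any scaling between libraries is not given in the sources used here.

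Gene positions came from the RefSeq table for Sscrofa11.1, the same assembly, without strand, so either gene end stood in for a start site, and the planned description of finger-coding sequence was not made. Overlapping peaks were merged and the percent of each window covered was computed (Python 3.11.15, pandas 2.3.3). Percentages were fitted with limma 3.58.1 (R 4.3.3; trend and robust variance), with all groups of a mark in 1 model, for 17902 coding genes with H3K4me3 and 11472 with H3K27me3 cover in at least 2 libraries. The method was tested on simulated data. The genes named are, for each comparison and direction, up to 4 called members with the largest difference, or the 2 largest where none was called, plus for each mark the 3 with the highest and lowest average cover and up to 4 with a marked end in every or no H3K4me3 library. Genes named otherwise (layouts along the body, stricter peaks, smaller siKDM5BC differences, members with no H3K27me3) were chosen after their values were seen. The members, gene lists and comparisons were chosen with earlier results of these data known. Library depth is unknown. Replicate numbers are shared between groups, but nothing in the labels pairs them.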

Additional observations from a re-analysis of the deposited data

How the results depend on the processing

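Counts of ZNF genes were compared across other peak filters, windows, scalings and model settings and with each library left out, where the library that remains is assumed to vary like those of other groups. The cause of each shift was not tested, except that fewer genes could be tested for non-shared windows and for bodies of 5 to 40 kb. Shares of all genes called in these refits are not repeated here. The counts alone therefore do not compare ZNF genes with other genes. H3K4me3 blastocyst over 4-cell (53 higher) gave 31 at gene ends and 28 with non-shared windows, and 43 to 48 with 1 library left out. Blastocyst over MII (69) gave 33 with non-shared windows and 51 to 63 with 1 library left out. Higher after siKDM5BC (15) became 7 with fold of 3.5 or more, 26 with 5 kb flanks, 2 when scaled, 9 for bodies of 5 to 40 kb, and 4 to 16 with 1 library left out. Lower in 4-cell than 2-cell (2) became 0 with −log10 q of 3 or more, 0 with fold of 3.5 or more, 9 with 5 kb flanks, 1 at gene ends, 0 when scaled, 4 on the arcsine scale, 0 with the 2 groups alone, and 0 to 4 with 1 library left out. Higher in 4-cell (0) became 10 with −log10 q of 3 or more and 3 when scaled. H3K27me3 lower in 2-cell than MII (6) became 0 with −log10 q of 3 or more, 1 at gene ends, 2 when scaled, 3 with no filter, 1 for bodies of 5 to 40 kb, and 5 to 10 with 1 library left out. H3K27me3 blastocyst over MII (55) became 7 with −log10 q of 3 or more, 8 when scaled and 30 with non-shared windows, and 52 to 55 with 1 library left out.

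With a replicate block, H3K4me3 counts were 2 lower (4-cell against 2-cell), 52 higher (blastocyst against 4-cell), 68 higher (blastocyst against MII) and 15 higher (siKDM5BC), and H3K27me3 counts were 6 lower and 55 higher, all within 1.5 times the values without it; the calls on ZNF579 (H3K4me3) and ZNF683 (H3K27me3) were lost. Deviations of same-numbered libraries correlated at −0.30 to 0.37 over 36 pairs of H3K4me3 groups and −0.09 to 0.11 over 15 pairs of H3K27me3 groups. Of the 36 H3K4me3 pairs, 5 lay over 0.1 and 5 under −0.1. Such correlations cannot show whether same-numbered libraries were handled together.

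The median ZNF cover minus that of other genes, in percentage points, moved as follows for bodies of 5 to 40 kb, −log10 q of 3 or more and non-shared windows. In H3K27me3 blastocysts 12.5 became 14.4, 0 and 14.9; in H3K27me3 morulae 2.19 became 4.41, 0 and 4.19, and 6.51 with means. In H3K4me3 blastocysts 15.1 became 8.52, 10.7 and 19.02, 12.2 with means and 10.2 against genes within 100 kb. In H3K4me3 morulae 15.3 became 10.9, 12.3 and 18.5, 13.1 with means and 10.5 against genes within 100 kb. Small differences at other stages reversed. For H3K4me3 they became 2.73 in 2-cell embryos with non-shared windows, 1.98 with −log10 q of 3 or more and 3.24 with non-shared windows after siKDM5BC, −2.30 for bodies of 5 to 40 kb and −0.99 against genes within 100 kb in GV, and −1.48, −1.30 with means and −1.68 against genes within 100 kb in MII oocytes. H3K27me3 cover of the last 20% of ZNF bodies was 35.03% to 36.3% in blastocysts when turned by 2-cell, 4-cell or siKDM5BC libraries; non-shared windows gave 41.4% and −log10 q of 3 or more 9.76%, and in morulae 22.7% and 5.93%. The comparisons by means, by genes within 100 kb, by non-shared windows for medians, and all those of the last 20%, were chosen after seeing the data.

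Single genes whose difference reversed were, for 4-cell against 2-cell H3K4me3, ZNF283 (1.85 with −log10 q of 3 or more, 3.55 with fold of 3.5 or more), ZNF521 (0.64, 0.33, and 4.40 at gene ends) and ZNF784 (−7.70 with 5 kb flanks). For blastocyst against MII H3K4me3 with −log10 q of 3 or more they were ZNF469 (13.3), ZNF423 (1.72) and ZNF536 (1.97). For H3K27me3 at gene ends they were ZNF423 (2.93) and ZNF536 (50). After siKDM5BC, ZNF672 gave 1.91 at gene ends, 1.89 without untreated replicate 1, −3.04 without untreated replicate 2 and 0.68 without siKDM5BC replicate 2, and ZNF565 gave 3.03 with −log10 q of 3 or more, 1.26 with fold of 3.5 or more, 0.054 with 5 kb flanks, 13.9 at gene ends, 0.19 without untreated replicate 2, −2.14 without siKDM5BC replicate 1 and 1.04 without siKDM5BC replicate 2. Neither of those 2 had been called.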
